A study of Mus musculus with 11 samples.

Results

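Broad ZIC2 peaks are the called ZIC2 binding regions of epiblast stem cells (EpiSCs) that were wider than 2000 bp on chromosomes 1 to 19 and X. They were chosen by that measured width, end minus start in the deposited peak list, which took 9643 of 121805 ZIC2 peaks, or 7.92%, and the other 112162 peaks were 2000 bp or narrower. The study mapped ZIC2 and 4 other transcription factors (OTX2, SOX2, POU3F1 and POU5F1) by ChIP-seq in feeder-free mouse EpiSCs of the 129/Sv strain, kept in medium with activin at 20 ng/ml and Fgf2 at 10 ng/ml. Each factor carried a biotinylation tag (BLRP), was expressed for a short time from a transfected plasmid that also encodes the BirA biotin ligase, and was pulled down with streptavidin from chromatin sheared to about 150 bp, so the maps are those of tagged protein added to the endogenous factor. A second set of cultures of the same cells, with the same plasmids, had activin removed 18 h before harvest and is called activin-free here. There was 1 library for each factor in each culture, so no difference below has a replicate check, and the input library was not analysed here. The peak lists give no read counts, so the depth behind a peak is unknown. The intervals given are 95% Wilson intervals of a share and cover counting error only.

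ZIC2 is a C2H2 zinc-finger transcription factor of the ZIC family, whose DNA-binding domain is related to that of the GLI factors of Hedgehog signalling. Zic2 is expressed in the epiblast and in EpiSCs, the cultured counterpart of the post-implantation epiblast, and is later required for forebrain and neural tube development. A transcription factor bound at a single site gives a narrow ChIP-seq peak set by the fragment length, whereas closely spaced sites, or signal spread along open chromatin, give a wider called region.

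Broad peaks differed widely in sequence. The windows printed here are 300 bp of the plus strand of mm9, chosen for the number of copies of a ZIC-type sequence, CAGCAGG on either strand (CCTGCTG on the plus strand), or, in the last window, of CG dinucleotides, and windows in annotated UTRs were left out. Capitals mark the copies. Of the broad peaks searched, the one with most copies in a 300 bp window lay at Stk32c, a kinase gene. There chr7:146375264-146375563 is intronic, 998 bp from a transcription start site (TSS), and holds 21 copies in an array of short repeats.
Stk32c: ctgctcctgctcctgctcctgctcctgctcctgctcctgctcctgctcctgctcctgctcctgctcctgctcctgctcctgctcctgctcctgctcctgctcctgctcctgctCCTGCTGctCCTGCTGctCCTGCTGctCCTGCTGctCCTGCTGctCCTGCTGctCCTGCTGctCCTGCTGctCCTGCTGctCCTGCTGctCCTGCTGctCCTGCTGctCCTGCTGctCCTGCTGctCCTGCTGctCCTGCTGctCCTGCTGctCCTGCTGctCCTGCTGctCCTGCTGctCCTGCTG
The next of the searched broad peaks with a TSS inside lay at Col16a1, a collagen gene. Its intronic window chr4:129774390-129774689 holds 8 copies, 308 bp from a TSS, and is shown as an array with G-rich spacers.
Col16a1: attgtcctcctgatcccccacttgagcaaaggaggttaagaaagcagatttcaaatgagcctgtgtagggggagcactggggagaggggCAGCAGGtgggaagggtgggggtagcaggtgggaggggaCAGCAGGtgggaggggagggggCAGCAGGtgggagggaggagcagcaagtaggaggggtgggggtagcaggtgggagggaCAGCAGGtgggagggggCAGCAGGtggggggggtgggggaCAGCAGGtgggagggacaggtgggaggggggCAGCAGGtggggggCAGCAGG
Among the searched broad peaks over 50 kb from a TSS, the window with most copies held 10. It lay in an intron of Dapk1, a death-associated kinase gene, at chr13:60783174-60783473, 79.8 kb from the nearest TSS, in a tandem repeat.
Dapk1: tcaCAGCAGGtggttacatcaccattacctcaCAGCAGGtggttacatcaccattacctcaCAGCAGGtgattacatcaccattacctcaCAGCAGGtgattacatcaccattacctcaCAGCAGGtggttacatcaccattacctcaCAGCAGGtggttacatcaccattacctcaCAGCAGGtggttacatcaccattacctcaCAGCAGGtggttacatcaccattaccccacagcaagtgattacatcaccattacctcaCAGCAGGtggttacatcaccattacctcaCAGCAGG
The broad peak with most copies over its whole width, 409 in 17402 bp, covered part of an intron of Ulk4, and chr9:121141261-121141560 holds 10 of them.
Ulk4: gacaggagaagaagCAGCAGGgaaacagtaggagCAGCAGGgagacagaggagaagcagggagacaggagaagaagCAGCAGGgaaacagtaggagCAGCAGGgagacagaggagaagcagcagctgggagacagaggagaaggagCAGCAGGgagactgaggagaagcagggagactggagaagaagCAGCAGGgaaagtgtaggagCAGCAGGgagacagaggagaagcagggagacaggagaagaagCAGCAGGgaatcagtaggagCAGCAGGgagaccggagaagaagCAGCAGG
The peak at Nodal, which encodes the TGF-beta family ligand of the epiblast, shows a window with 1 copy, at chr10:60879579-60879878, 991 bp from the Nodal TSS.
Nodal: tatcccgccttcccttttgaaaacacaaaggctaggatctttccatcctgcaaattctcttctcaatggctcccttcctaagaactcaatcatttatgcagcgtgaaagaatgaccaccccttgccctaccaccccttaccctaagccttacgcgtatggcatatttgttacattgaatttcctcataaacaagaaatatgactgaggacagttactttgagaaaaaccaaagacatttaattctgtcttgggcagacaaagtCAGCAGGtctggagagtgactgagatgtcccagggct
The peak at the start of Dnmt3a, a de novo DNA methyltransferase gene, shows the CpG-rich kind of broad peak, with 53 CG dinucleotides in the intronic window chr12:3807268-3807567, 258 bp from a TSS.
Dnmt3a: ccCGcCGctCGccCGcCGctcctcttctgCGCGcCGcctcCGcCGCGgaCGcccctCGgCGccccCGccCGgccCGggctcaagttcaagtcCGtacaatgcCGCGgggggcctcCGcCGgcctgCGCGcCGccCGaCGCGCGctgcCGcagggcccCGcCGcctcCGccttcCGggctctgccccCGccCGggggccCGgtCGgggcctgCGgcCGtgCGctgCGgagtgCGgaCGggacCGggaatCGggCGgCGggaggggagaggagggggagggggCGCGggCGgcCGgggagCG
The Nodal, Dnmt3a and Ulk4 peaks were chosen after their values were seen. A copy of CAGCAGG, searched on both strands, lay in the central 300 bp of 19.3% of broad peaks (18.5 to 20.1), of 26.1% of narrower ZIC2 peaks and in 10.9% of 300 bp windows 5 kb outside the broad peaks.

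The width chose these peaks, and it and the score, which comes from the same calls, are given as a description. The peaks ran from 2001 to 18477 bp with a median of 2500 bp, and 2641 were over 3000 bp, 333 over 5000 bp and 7 over 10 kb. Together they covered 27.1 Mb. The score, which the peak caller MACS gives as minus 10 times the log10 of its p-value, ranged from 61.7 to 3233 with a median of 1301, against a median of 151 in the narrower ZIC2 peaks. Of 887 ZIC2 peaks with a score of at least 3100, 796 were broad. Just inside the threshold, the 129 peaks of 2001 to 2010 bp had a median score of 808 and a median TSS distance of 3000 bp. Just outside it, the 120 peaks of 1991 to 2000 bp had a median score of 845 and a median TSS distance of 4484.5 bp. In the other EpiSC lists, 2160 OTX2, 424 SOX2 and 1967 POU5F1 peaks passed 2000 bp, or 2.09%, 0.666% and 3.15% of those lists, whereas POU3F1, a POU-family factor of the epiblast and neural lineage, had more broad peaks than ZIC2, 14911 or 13.2%.

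Broad ZIC2 peaks lay at gene starts more often than narrower ones. A TSS of any GENCODE transcript was inside 4757 of the 9643 broad peaks (49.3%, 48.3 to 50.3), against 15.4% of all ZIC2 peaks and 12.5% of those up to 2000 bp. The share rose with width, from 2.68% of peaks up to 500 bp and 25.3% of those of 1001 to 2000 bp to 45.3% at 2001 to 3000 bp, 58.8% at 3001 to 5000 bp and 67.9% over 5000 bp. A wider region can hold more TSSs by length alone. Within the central 1000 bp alone, 31.2% of broad peaks held a TSS (30.2 to 32.1) against 12.5% of narrower peaks. That window reaches beyond peaks under 1000 bp wide and takes in DNA outside them. Among the broad peaks this central share fell with width. Per length, broad peaks held 4.68 TSSs per 10 kb, close to the 4.64 in peaks of 1001 to 2000 bp and above the 3.07 in all narrower peaks. The score moved with width, so peaks scoring 500 to 1500 were set side by side, a choice made after seeing the data that left median scores of 952 over 2000 bp and 746 at 1001 to 2000 bp. Among peaks scoring 500 to 1500, a TSS was inside 42.3% of the 5024 over 2000 bp (40.9 to 43.7) and 35.0% of the 13444 of 1001 to 2000 bp, and the order was the opposite in the central 1000 bp, 28.4% against 32.4%, and per length, 4.25 against 6.22 TSSs per 10 kb.

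Midpoints of broad peaks were within 5 kb of a TSS in 65.5% of cases, against 36.9% of all ZIC2 peaks, and within 50 kb in 96.3%, against 84.6%. The median distance was 1636 bp, and 10613 bp in narrower peaks. A midpoint was inside a protein-coding gene in 75.6% of broad peaks (74.8 to 76.5), against 58.5% of all ZIC2 peaks. Of the 9643 midpoints, 49.0% were in introns, 12.8% in coding exons, 8.04% in 5' UTRs, 3.80% in 3' UTRs and 21.8% between genes. In narrower peaks the intergenic share was 40.4% and the coding-exon share 6.86%, whereas at a score of 500 to 1500 the coding-exon shares were 12.5% (11.6 to 13.4) over 2000 bp and 11.1% (10.6 to 11.6) at 1001 to 2000 bp. Start sites of coding genes on both strands were inside 339 broad peaks, or 3.52%, against 0.769% of narrower peaks. At a score of 500 to 1500 this difference did not hold, with 3.07% (2.62 to 3.58) over 2000 bp and 2.93% (2.66 to 3.23) at 1001 to 2000 bp.

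Broad peaks at genes reached further downstream than upstream of the start by the median, by an amount that depended on the TSS measured from. In the 4155 that held TSSs of exactly 1 coding gene, the peak reached a median of 889 bp upstream of the most 5' TSS and 1730 bp downstream of it. It reached further into the gene than upstream in 75.7% of them (74.4 to 77.0). Measuring from the most 5' TSS lengthens the downstream side where a peak holds several, and the share was 57.0% (55.5 to 58.5) from the most 3' TSS and 69.1% (67.1 to 71.1) in the 2004 peaks with 1 TSS position, both measured after seeing the data. Over both edges together, without regard to gene orientation, there were 4.30 TSSs per 10 kb in the outer 1 kb of the peak, 0.969 in the 1 kb outside it and 1.16 at 4 to 5 kb outside.

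**Figure D1:**
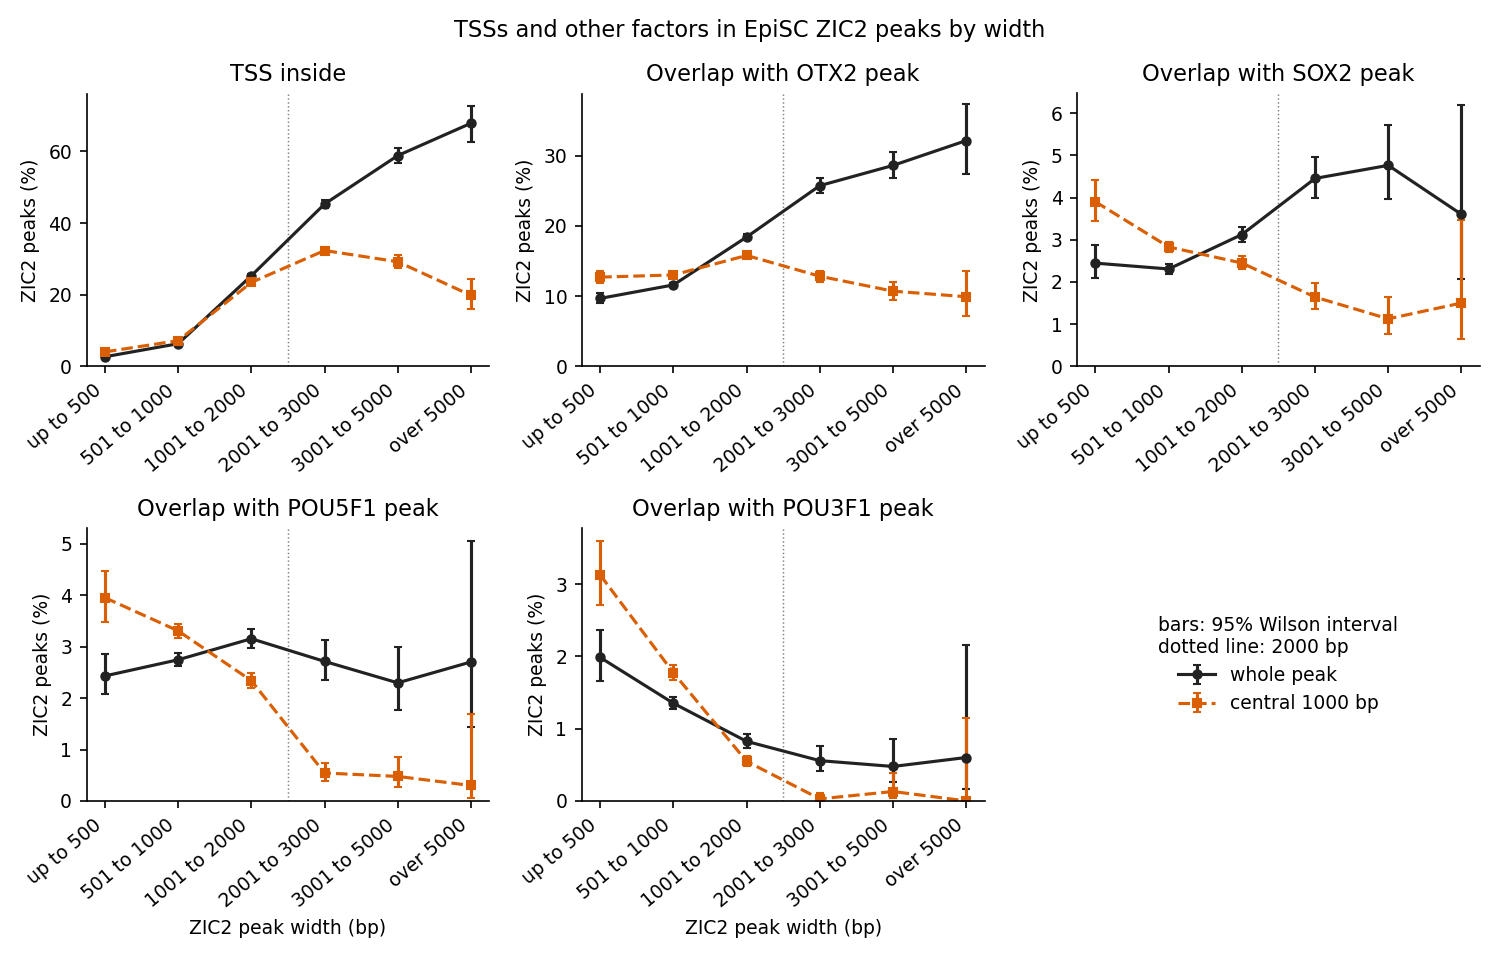
Share of EpiSC ZIC2 peaks (%) with a TSS inside or overlapped by an EpiSC peak of OTX2, SOX2, POU5F1 or POU3F1, by ZIC2 peak width in bp, for the whole peak (black) and its central 1000 bp (orange), with 95% Wilson intervals and a dotted line at 2000 bp. In peaks under 1000 bp wide the central window reaches beyond the peak. The TSS share of whole peaks rises to 67.9% over 5000 bp. OTX2 rises to 32.1% in whole peaks but not in the centre, and the central shares of POU5F1 and POU3F1 fall toward 0.

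The sequence of broad peaks was richer in G and C than that of narrower peaks and of the DNA around them, while its higher CpG content did not hold against peaks of like score. The GC content was 56.4% ± 3.52 (SD over 9643 peaks), against 52.1% ± 4.19 in narrower ZIC2 peaks, and 58.6% in the central 1000 bp. Windows of 1000 bp starting 5 kb outside the edges averaged 49.3%, and 90.6% of broad peaks were above their own flanks. The flanks themselves rose with peak width, from 44.7% beside peaks up to 500 bp to 51.3% beside those over 5000 bp. The CpG ratio, the number of CpG dinucleotides over that expected from the C and G content, averaged 0.367 in broad peaks, 0.246 in narrower peaks and 0.230 in the flanks. CpG-rich DNA with a GC content of at least 50% and a ratio of at least 0.6, the usual kind of sequence at promoters that stay unmethylated, made up 1841 broad peaks (19.1%, 18.3 to 19.9) and 7.11% of narrower ones. This share fell with width among the broad peaks, from 20.6% at 2001 to 3000 bp to 8.41% over 5000 bp. In the score range 500 to 1500, GC content was 55.8% over 2000 bp and 54.5% at 1001 to 2000 bp, but the order turned for CpG, with ratios of 0.336 and 0.358 and CpG-rich shares of 15.2% (14.3 to 16.2) and 22.9%.

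The high ratio belonged to the broad peaks at gene starts. With a TSS inside, GC content averaged 58.2% and the CpG ratio 0.499, and 35.8% of the 4757 peaks were CpG-rich by those limits. Without a TSS, GC content averaged 54.7% and the ratio 0.238, close to the 0.234 of their flanks, and 2.87% of the 4886 peaks were CpG-rich. The 359 broad peaks over 50 kb from a TSS had a GC content of 54.1% and a ratio of 0.239. Broad peaks away from gene starts were thus GC-rich without being CpG-rich.

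CAGCAGG occurred 0.724 times per kb in broad peaks, 0.730 in narrower peaks and 0.416 in the flanks of the broad peaks. The density over what base composition alone gives was 4.25 in broad peaks, 5.16 in narrower peaks and 3.55 in the flanks. Copies were sparser with a TSS inside, 0.592 per kb, than without, 0.865, and numbered 0.983 per kb over 50 kb from a TSS. Repeats were not left out of these values. Without a TSS inside, 1 peak alone held 409 of 11338 copies, and over 50 kb from a TSS 1 peak held 52 of 883. At least 1 copy was present in 80.3% of broad peaks and 45.9% of narrower ones, the longer sequence holding more. Over 5000 bp the density was 0.959 per kb, but 0.722 without the peaks in which at least 20% of 12-mers recurred within the peak. Such repeat-rich peaks numbered 127 of 9643, or 1.32%.

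**Figure D2:**
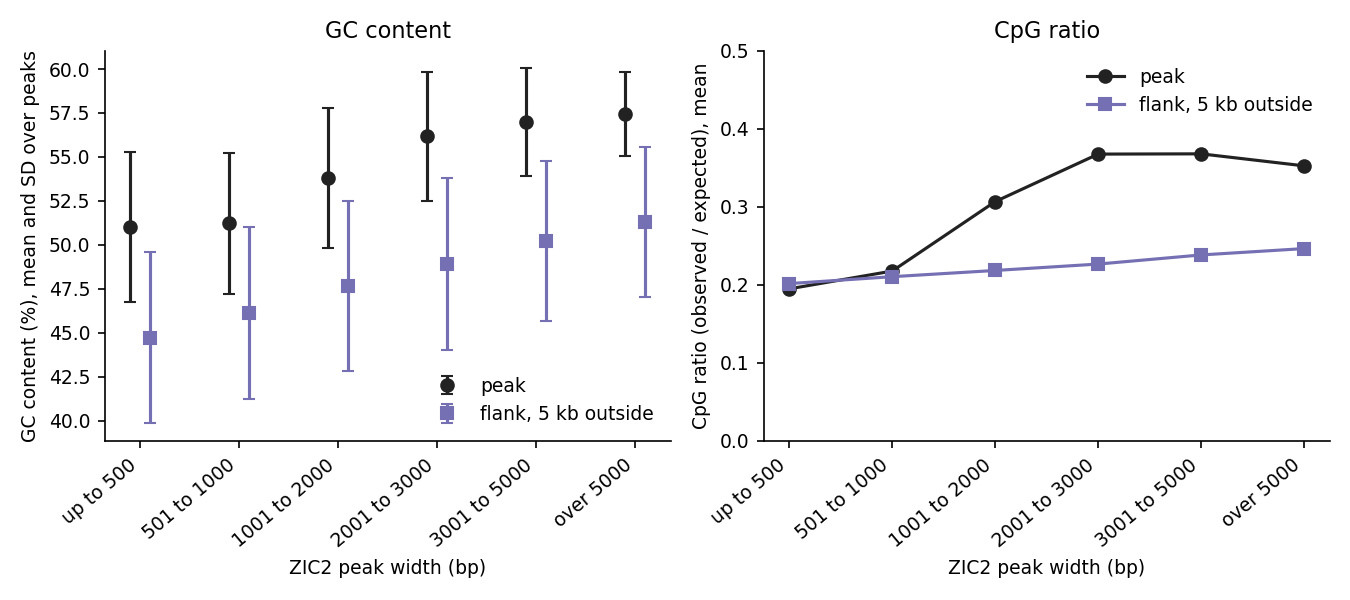
GC content (%, mean and SD over peaks, left) and mean CpG ratio (observed over expected, right) of EpiSC ZIC2 peaks by width in bp, for the peak (black) and for 1000 bp windows 5 kb outside its edges (purple). Peaks are above their flanks in GC content at every width, and the CpG ratio leaves that of the flank from 1001 bp upward.

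The widest broad peaks were of 2 kinds. The 3 widest lay over repeats. The X-chromosome peak chrX:166428635-166447111 in an intron of Mid1, a ubiquitin ligase gene, was 18477 bp wide, and 76.7% of its 12-mers recurred. The Ulk4 peak, chr9:121131647-121149048, was 17402 bp wide with 93.5% of 12-mers recurring. The third, chrX:131574734-131591137, was 16404 bp wide at 94.9%, with a score of 790. All 3 were found in the activin-free ZIC2 list as well, at 18547, 19998 and 16631 bp.

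The next 7 lay at genes and had little repeated sequence, at most 1.4% of 12-mers. At Zbtb7a, which encodes a zinc-finger repressor, chr10:80596521-80610171 spanned 13651 bp (score 3100) and was covered in the activin-free list by 3 peaks, the widest of 6428 bp. A 12348 bp peak spanned the start of Midn and reached Atp5d, an ATP synthase subunit gene, and stayed a single peak of 11595 bp without activin. The others were at Plec (10503 bp), which encodes the cytolinker plectin, at Stac3, Ndufa4l2 and Shmt2 (10330 bp), at Cend1, Slc25a22 and Lrdd (9951 bp), at Traf4 and Nek8 (9419 bp) and at Runx3 (9221 bp), a Runt-family factor gene. The highest scores outside coding exons of the mapped factors, 3230 to 3233, were in introns of Hspg2, Fam129b, Palm and 4931408A02Rik and at the 5' UTR of Sdk1, and these peaks were 2338 to 7171 bp wide. Scores from 3100 upward are at the limit of the caller and give no order of strength.

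Of the 5 widest broad peaks over 50 kb from a TSS, 3 lay on chromosome 8 in introns of the long gene model Gm20388, the widest being chr8:122944635-122951170 (6536 bp, score 3100, 10 copies of CAGCAGG), 64.9 kb from the Gse1 start. The nearest TSS of the other two was that of Gse1 at 80.1 kb and that of Fam92b at 116.3 kb. The remaining peaks lay 62.5 kb from Cpz (4729 bp) and 73.0 kb from Rybp (4113 bp), the latter a Polycomb partner gene. All 5 were overlapped by activin-free ZIC2 peaks over at least 91.8% of their width.

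Broad peaks were close to other ZIC2 peaks and to each other. The median gap from edge to edge to the nearest other ZIC2 peak was 738 bp, against 1977.5 bp for narrower peaks. Another ZIC2 peak lay under 1 kb away in 57.2% (56.2 to 58.2) against 35.6%. The nearest other broad peak was a median of 9945 bp away, with quartiles of 2365 and 45679.5 bp, and 37.6% had another broad peak under 5 kb away. Of these, 1407 chains of at least 2 broad peaks under 5 kb apart held 3622 peaks, and 473 chains held at least 3. The longest, of 11 broad peaks, ran over chr12:114148388-114201390, from Jag2, which encodes a Notch ligand, past Nudt14 to Brf1, an RNA polymerase III factor gene. Widths in that chain were 2031 to 5613 bp. None of the 11 overlapped a peak of another factor in EpiSCs, which was also the case for 69.7% of all broad peaks.

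Over the genome the broad peaks were unevenly placed. They occupied 1469 of 2528 segments of 1 Mb that held a ZIC2 peak, and the 252 segments with most broad peaks held 62.3% of them. For ZIC2 peaks of any width, the corresponding 252 segments held 37.8%. Each set was ranked by its own counts. A smaller set reaches a higher share in its own top segments by counting error alone, so these shares are not like for like. In the segment with most, chr10:80000001-81000000, 103 of the ZIC2 peaks were broad, or 33.7%, and its neighbour chr10:79000001-80000000 held 97. The share of ZIC2 peaks that were broad was 10.8% on chromosome 11 and 10.7% on chromosome 19, both GC-rich and gene-dense chromosomes, and lowest on chromosome 13, 4.71%, and X, 3.08%.

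Overlap with other factors depended on the factor and on the place within the broad peak. At least 1 shared bp with an EpiSC OTX2 peak was found for 2568 broad peaks (26.6%, 25.8 to 27.5), against 14.8% of all ZIC2 peaks. With OTX2 peaks scoring at least 100 the shares were 16.2% and 8.85%. OTX2 is a homeodomain factor of the epiblast and anterior neural plate. By width the share was 18.4% at 1001 to 2000 bp, 25.7% at 2001 to 3000 bp and 32.1% over 5000 bp. In the central 1000 bp it was 12.2% (11.6 to 12.9), below the 13.9% of narrower peaks. These windows are unlike, since the window reaches beyond peaks under 1000 bp wide and the median width of narrower peaks was 826 bp. Per length, 0.754 OTX2 peak midpoints per 10 kb lay in broad peaks and 0.831 in narrower peaks, against 0.391 over the genome. In the score range 500 to 1500, the shares of whole peaks were 23.1% (22.0 to 24.3) over 2000 bp and 22.7% at 1001 to 2000 bp, with overlapping intervals, and the central shares were 11.9% and 18.9%. The higher OTX2 share of whole broad peaks therefore did not hold in the centre or at like score. It was 34.7% with a TSS inside and 18.8% without.

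SOX2, an HMG-box factor that partners POU factors, overlapped 434 broad peaks (4.50%, 4.10 to 4.93; all ZIC2 peaks 2.74%), and 1.51% in the centre against 2.76% of narrower peaks. At a score of 500 to 1500 its whole-peak share was 3.36% (2.90 to 3.90) over 2000 bp and 4.10% (3.78 to 4.45) at 1001 to 2000 bp. The direction turned, but the intervals overlapped. With SOX2 peaks scoring at least 100 the shares were 1.74% of broad and 1.24% of all ZIC2 peaks. POU5F1, the pluripotency factor OCT4, overlapped 252 (2.61%, 2.31 to 2.95), with 2.85% of all ZIC2 peaks inside that interval. With at least 50% of the POU5F1 peak inside, the order turned. The shares were then 0.964% of broad peaks (0.788 to 1.18) and 0.694% of all ZIC2 peaks (0.649 to 0.742). A wider peak holds 50% of a second peak more easily by length alone. Per length, POU5F1 midpoints numbered 0.0347 per 10 kb in broad peaks and 0.0763 in narrower peaks. At a score of 500 to 1500 the POU5F1 share of whole peaks was 2.51% (2.11 to 2.98) over 2000 bp and 3.47% (3.17 to 3.79) at 1001 to 2000 bp. The central share of POU5F1 was 0.519% (0.394 to 0.683) against 3.02% of narrower peaks. As for OTX2, the central window reaches beyond peaks under 1000 bp wide. At 1001 to 2000 bp, where it stays inside the peak, the central shares were 2.45% for SOX2 and 2.34% for POU5F1. POU3F1 overlapped 52 (0.539%, 0.411 to 0.706; all ZIC2 peaks 1.16%), and 5 in the centre. In the activin-free lists of the same factors the shares were 19.8% for OTX2 (all ZIC2 peaks 12.7%), 6.84% for SOX2 (4.62%), 3.73% for POU5F1 (4.27%) and 1.22% for POU3F1 (1.8%). In the score range 500 to 1500, the higher activin-free shares of broad peaks did not hold, with 17.3% over 2000 bp against 18.9% at 1001 to 2000 bp for OTX2 and 5.73% against 7.35% for SOX2.

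OTX2 and SOX2 peaks were densest at the edges of broad peaks. OTX2 midpoints numbered 0.537 per 10 kb at 750 to 1000 bp inside the edge, 1.15 in the last 250 bp inside and 1.12 in the 250 bp outside, and 0.734 at 4 to 5 kb outside. SOX2 midpoints rose from 0.0996 to 0.153 and 0.234 over those 3 bins and were at 0.104 at 4 to 5 kb. POU5F1 and POU3F1 midpoints also became denser from inside the edge to outside it, but the density at the edge did not stand above the level farther out. Their midpoints numbered 0.0384 and 0.00415 per 10 kb in the outer 1 kb of the peak, 0.168 and 0.0467 in the 1 kb outside it, and 0.159 and 0.0627 at 4 to 5 kb outside. These are densities of called midpoints. TSS density changed across the same positions, and its part in the profiles was not tested.

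**Figure D3:**
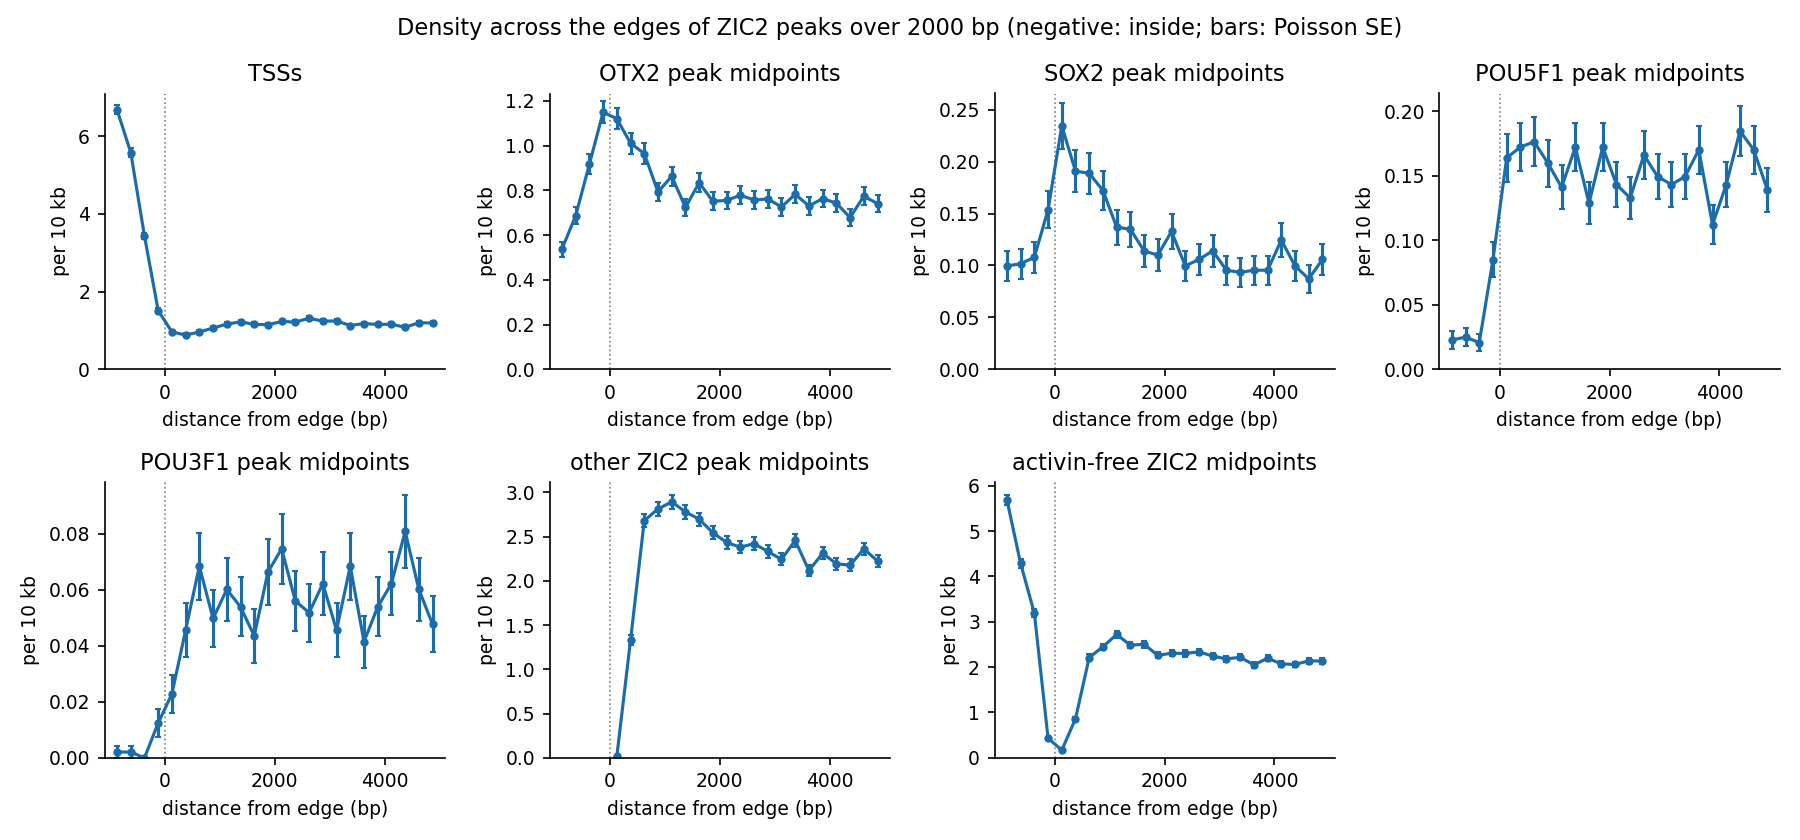
Density (per 10 kb) of TSSs and of peak midpoints of the named lists, in bins of 250 bp, against distance in bp from the edges of 9643 ZIC2 peaks over 2000 bp, with negative values inside and bars of the Poisson standard error. TSSs fall at the edge, OTX2 and SOX2 are highest within 250 bp of it, and POU5F1 and POU3F1 are lower inside than outside.

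No peak of the other 4 factors was found in 6718 broad peaks (69.7%). Peaks of 1 other factor were found in 2581, of 2 in 312, of 3 in 27 and of all 4 in 5. Counting peaks with further factors as well, OTX2 and SOX2 were both present in 248 and POU5F1 and POU3F1 in 22. The matching shares of all ZIC2 peaks were not computed, so these counts describe the broad peaks alone and show no difference from other ZIC2 peaks. The 5 with all 4 factors were at Sntg1, Rims2, Sp9, Tnks1bp1 and Rfx7, 4 of them with midpoints within 329 bp of a TSS. Broad peaks touched coding exons of Zic2, Pou5f1, Sox2 and Pou3f1, with widths of 2572, 3081, 3337 and 4271 bp. The plasmid used for ZIC2 carries the Zic2 coding sequence, and whether plasmid DNA adds to the Zic2 peak was not tested.

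Nearly all broad peaks were found again without activin. An activin-free ZIC2 peak overlapped 9629 of 9643 (99.9%, 99.8 to 99.9), against 78.9% of all ZIC2 peaks, and in the score range 500 to 1500 all 5024 peaks over 2000 bp and all 13444 of 1001 to 2000 bp were overlapped. The overlap covered a median of 91.0% of the broad peak (quartiles 82.4 and 96.0), and 209 peaks were covered over less than 50%. The activin-free peak was itself over 2000 bp for 57.6% (56.6 to 58.6), against 5.64% of all ZIC2 peaks. This share rose with EpiSC width, from 34.4% at 2001 to 2250 bp to 77.0% at 3001 to 5000 bp and 96.1% over 5000 bp. Conversely, of 6187 activin-free ZIC2 peaks over 2000 bp, 6186 overlapped an EpiSC ZIC2 peak and 5580 (90.2%) a broad one. The activin-free list held fewer peaks, 109062, and culture and library cannot be told apart.

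Some broad peaks met several activin-free ZIC2 peaks, which can reach beyond their edges. Of the 9643, 6661 matched 1 activin-free peak, 2592 matched 2 and 376 at least 3. The share matched by 2 or more rose from 17.9% (16.5 to 19.3) at 2001 to 2250 bp to 64.6% (59.3 to 69.5) over 5000 bp, and a longer region meets more peaks by length alone. The widest activin-free peak exceeded the broad peak in 1441 cases. At Mycn, a proto-oncogene of the epiblast, the 5289 bp EpiSC peak with 3 TSSs inside matched 2 activin-free peaks, the wider of 3063 bp. At Nodal the 2948 bp peak matched 2, the wider of 1866 bp. The 8944 bp peak at the 3' end of Nes, the gene of the intermediate filament nestin, stayed a single peak of 8640 bp, and that at Sall4, a zinc-finger pluripotency factor gene, stayed one of 2963 bp for 2920 bp in EpiSCs.

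**Figure D4:**
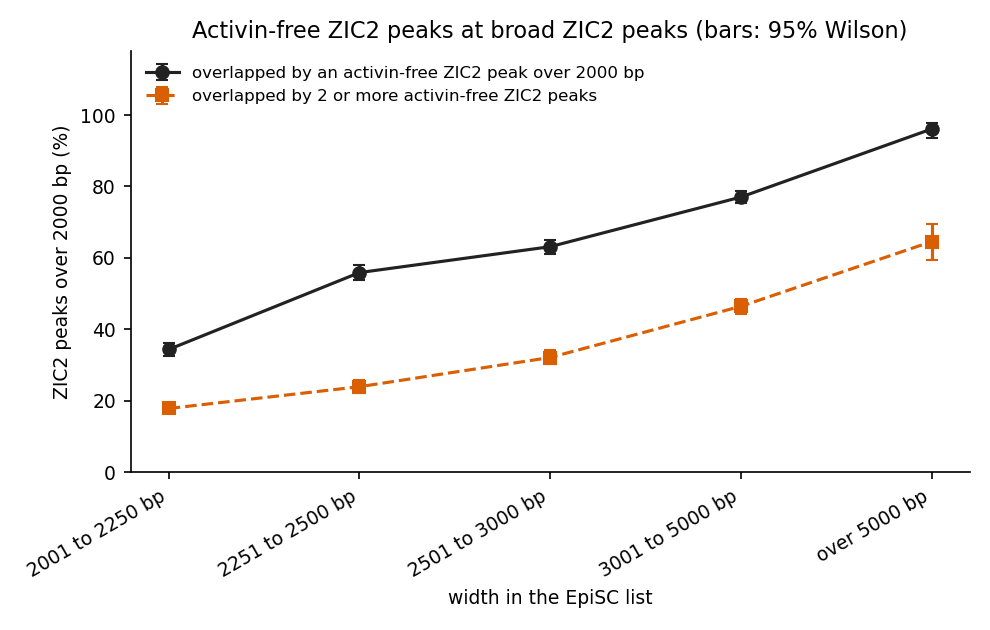
Share (%) of ZIC2 peaks over 2000 bp overlapped by an activin-free ZIC2 peak that is itself over 2000 bp (black) and by 2 or more activin-free ZIC2 peaks (orange), by width in the EpiSC list, with 95% Wilson intervals. The black line rises from 34.4% to 96.1% and the orange line from 17.9% to 64.6%.

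The 14 broad peaks with no activin-free ZIC2 peak were 2006 to 3791 bp wide with scores from 66.6 to 445, all below the lower quartile of 825 of the broad peaks. The highest-scoring of them, in an intron of Plekhm3, held 88.8% recurring 12-mers. Another 3 lay together near 20 Mb on chromosome 8, at chr8:19723310-19725998, chr8:19962686-19965045 and chr8:19973511-19977301, with scores of 75.2, 98.0 and 92.6 and GC contents of 47.5%, 48.1% and 47.2%, which is low for broad peaks. The rest were at Sned1, Prss30, Mslnl, Psd2, Bbs1, Dlgap4, Heatr8, Zbtb48 and Actn4 and near Gm7697.

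Of 22350 protein-coding genes, 4373 had a TSS in a broad peak and 6060 had a broad peak in the gene or up to 5 kb upstream, which is the background for the gene lists, 19.6% and 27.1%. Genes with at least 2 broad peaks numbered 2055, and with at least 8, 47. The annotated gene with most was Gm20388, a model of 4435 kb on chromosome 8 that spans other genes, with 151. Those reported after it were Macrod1, an ADP-ribose hydrolase gene, with 18, Zmiz1, a transcriptional coregulator gene, with 16, and Gse1, Dab2ip, 8430427H17Rik, Sept9, Rbfox3 and Myo18a with 13 each. All of these except Gm20388 had a broad peak at a TSS, and all except Gse1, of 92.5 kb, were over 100 kb long, against a median of 15.4 kb for coding genes.

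Genes of most epiblast, signalling and early lineage lists had broad peaks at their starts more often than coding genes at large. Of 19 epiblast and shared pluripotency regulators, 15 had a TSS in a broad peak (56.7 to 91.5%). Among them Dnmt3a had 7 broad peaks in the gene, with a peak of 3492 bp and a GC content of 70.7% at the start. Tcf7l1, a Wnt-pathway repressor gene, had 3, and Sall4, Mycn, Foxd3, Utf1, Lin28a and Dnmt3b were others. The list holds the genes of all 5 mapped factors, and the count without them is 11 of 14. No broad peak was in or 5 kb upstream of Fgf5, Nanog, Otx2 or Pax6, a paired-box factor gene of the eye and brain. Of 12 naive pluripotency regulators, 5 had a TSS in a broad peak, namely Klf2, Klf4, Esrrb, Prdm14 and Tbx3, with an interval of 19.3 to 68.0% that takes in the background.

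The Nodal and activin pathway, whose ligand was removed in the second culture, had 9 of 21 genes with a TSS in a broad peak (24.5 to 63.5%) and 12 of 21 in or near the gene. Those at a start were the ligand Nodal, the antagonist Lefty1, the co-receptor Tdgf1, the receptor Acvr2b, the transducer Smad3, the inhibitor Smad7, the nuclear partner Foxh1, the repressor Skil and the convertase Furin. The Foxh1 peak, 4467 bp, was longer than the gene itself, of 1.665 kb.

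In the FGF pathway 14 of 19 genes had a TSS in a broad peak (51.2 to 88.2%). These included the ligands Fgf2, Fgf4, Fgf8 and Fgf15, the receptors Fgfr2 and Fgfr3, and the feedback inhibitors Spry2, Spry4, Spred1, Spred2, Dusp4 and Dusp6. Fgfr3 had 3 broad peaks, of which the widest was 4611 bp, and all 3 overlapped an activin-free peak over 2000 bp. Fgfr2 had 12, but its gene model here spans 3009 kb. In the Wnt pathway 21 of 29 genes had one (54.3 to 85.3%), among them 5 Wnt ligand genes and 6 Frizzled receptor genes, and Wnt7b had 6 in or near the gene, the widest of 5936 bp. Notch had 14 of 20 (48.1 to 85.5%), with Notch1 to Notch4 and the ligands Dll1, Dll3, Dll4 and Jag1, and Jag2 had 6 in the gene or upstream though none at its TSS. BMP had 10 of 20 and Hedgehog 8 of 14, in which Gli1, Gli2 and Gli3, the transcription factors related to ZIC2, and the receptor Ptch1 were included.

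Primitive streak and endoderm regulators had 11 of 14 (52.4 to 92.4%), including T, Mixl1, Gsc, Foxa2, Gata4 and Gata6, and 13 of 14 in or near the gene. Anterior neural plate regulators had 14 of 23 (40.8 to 77.8%), including Six3, Rax, Lhx2, Lhx5, En1 and En2. Hox genes, the posterior patterning genes, had 9 of 39 (12.6 to 38.3%), near the background. Ribosomal protein genes had 6 of 76 (3.67 to 16.2%), below it, and olfactory receptor genes had 0 of 1087 (Wilson upper limit 0.352%, and 0.276% by the limit of 3 counts that a count of 0 allows).

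The lists differed in how often a ZIC2 peak at a start was broad. A TSS in an EpiSC ZIC2 peak of any width was found for 66.2% of coding genes, and for 29.6% of those the peak was broad. Ribosomal protein genes had a ZIC2 peak at the start in 64 of 76 cases, of which 9.38% (4.37 to 18.98) were broad. Wnt genes had one in 29 of 29, of which 72.4% (54.3 to 85.3) were broad, and epiblast regulators without the 5 mapped factors in 14 of 14, of which 78.6% (52.4 to 92.4) were broad. Naive pluripotency regulators had a ZIC2 peak at the start in 7 of 12 cases, of which 71.4% (35.9 to 91.8) were broad. For Hox genes the broad share was 9 of 30 (16.7 to 47.9%) and for the Nodal and activin pathway 9 of 18 (29.0 to 71.0%). The intervals of the Hox and Nodal lists take in the share of all coding genes. Gene length, CpG content and expression differ between such lists, and their part in these shares was not tested.

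**Figure D5:**
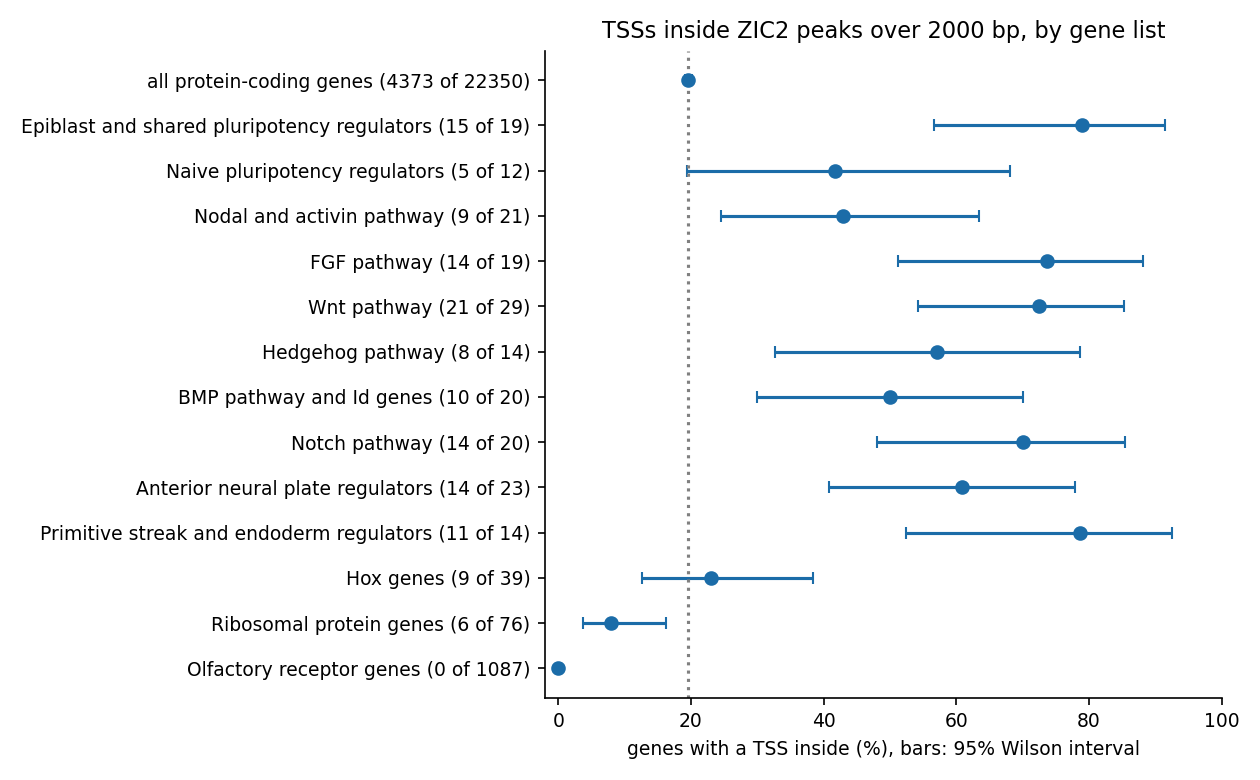
Share (%) of the genes of each list with a TSS inside a ZIC2 peak over 2000 bp, with the number of genes and 95% Wilson intervals, and a dotted line at the share of all protein-coding genes. Signalling and lineage lists lie to the right of the line at 19.6%, Hox genes near it, and ribosomal protein and olfactory receptor genes to its left.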

How the data were processed

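ChIP-seq peak lists of 5 BLRP-tagged factors in 2 cultures, 10 lists in all, were used as deposited. According to the submitters' processing notes the reads were mapped with Bowtie2 to mm9, and per the study's methods peaks were called with MACS1.4 against input at a band width of 150 bases. The authors called each library separately, and the deposited score is the caller's minus 10 times log10 p, at least 50. No read counts were used here, so depth limits could not be set. Sequence and genes came from NCBIM37 (mm9) with GENCODE vM1, with 86803 TSSs. Promoter sequences on another build were not used. Overlap required 1 bp, flanks were 1000 bp windows 5 kb outside each edge, and recurring 12-mers were those present at least 3 times in a peak. Interval and overlap functions were tested on simulated data. Scripts used Python 3.11.15, pandas 2.3.3, scipy 1.17.1 and pysam 0.24.0.

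The members and the gene lists were chosen with earlier results of these data known. By rule the text names the 10 widest broad peaks, the 5 with the highest scores outside factor coding exons, the 5 widest over 50 kb from a TSS, the densest segment, the longest chain, the 10 genes with most broad peaks, up to 4 genes of a list by summed width, and the factor and example genes. Other genes of a list are named for completeness and other regions were chosen after their values were seen. Some genes that the rule names are not reported here. Tfcp2l1 and Sox1 did not match a symbol in the annotation. No hypothesis test was made, with 1 library per group. Alternatives were a width of 3000 bp, autosomes alone, members without factor coding exons or without overlap by all 4 other factors, merging of ZIC2 peaks under 150 bp apart, a score of at least 100 or 50% overlap for the second peak, the central 1000 bp and coding TSSs alone.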

Additional observations from a re-analysis of the deposited data

How the results depend on the processing

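No paired analysis was possible because each factor had 1 library in each culture and no replicate numbers. Of 119 recomputed values, 76 stayed within the 95% interval of the reported value, or within 1.5 times it for counts, and 43 moved. These are levels in the broad peaks and not differences from other ZIC2 peaks, whose order turned under some settings, among them for SOX2, POU5F1, the CpG ratio and the central TSS share. Leaving out chromosome X, the peaks at factor coding exons or the 5 peaks with all 4 other factors moved none. The cause of the shifts was not tested.

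With only the 2641 peaks over 3000 bp, a TSS was inside 59.98%, 72.4% were within 5 kb of a TSS at a median of 1244 bp, 80.2% were in genes, GC content was 57.0%, CAGCAGG 0.747 per kb, OTX2 overlap 29.0%, activin-free ZIC2 overlap 99.96%, the broad activin-free share 79.4%, the median gap 521 bp, and 1534 genes had a TSS inside. With ZIC2 peaks under 150 bp apart merged, the values were 47.3%, 62.2%, 2171 bp, 74.3%, 55.9%, a CpG ratio of 0.353, 0.711 per kb, POU5F1 overlap 3.16%, 49.2% broad without activin and a gap of 1014 bp. In the central 1000 bp, a TSS was inside 31.2%, GC content was 58.6%, the CpG ratio 0.396, CAGCAGG 0.754 per kb, and overlap with OTX2 12.2%, with SOX2 1.51%, with POU5F1 0.519% and with POU3F1 0.0519%. With second peaks scoring at least 100, overlap with OTX2 was 16.2%, with SOX2 1.74%, with POU5F1 1.75% and with activin-free ZIC2 99.4%. With at least 50% of the second peak inside, it was 18.9%, 2.88%, 0.964%, 0.114% for POU3F1 and 99.6%. With coding TSSs alone, 47.2% held a TSS, 62.1% were within 5 kb and the median distance was 2075 bp. Without the repeat-rich peaks, an alternative chosen after seeing the data, CAGCAGG was at 0.688 per kb. The gene count under other members was also added after seeing the data.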
